A study of Mus musculus with 23 samples.

Results

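The replication-dependent histone genes were the 68 rows of the deposited expression table, of 24475 in all, whose symbol begins with Hist1h, Hist2h, Hist3h or Hist4. They comprised 6 H1, 18 H2A, 19 H2B, 12 H3 and 13 H4 genes. The Hist1 cluster on chromosome 13 held 54 of them, the Hist2 cluster on chromosome 3 held 10, the Hist3 cluster on chromosome 11 held 3, and Hist4h4 lay alone on chromosome 6.

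RNA sequencing was performed on 23 mouse libraries in 3 groups. Thymus of normal C57BL/6 mice gave 6 control libraries, for which the age of the mice is not given in the sources used here. Spleens of leukemic BALB/c Rag2-/-Il2rg-/- hosts that had received a newborn wild-type B6.Ly5.1 thymus lobe under the kidney capsule gave 14 libraries of T-cell acute lymphoblastic leukemia (WT T-ALL). The same hosts grafted with Notch3 knockout thymus gave 3 libraries (Notch3 KO T-ALL). All hosts, young adults when grafted, lacked Rag2 and Il2rg, without which mice make no mature T or B cells of their own, whereas the control mice carried both genes. Each library is labelled as a separate mouse. The spleen cells were not sorted, so host cells were sequenced together with the leukemia, and tissue, host strain and disease cannot be told apart in any comparison with thymus.

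Histone proteins wrap DNA into nucleosomes: H2A, H2B, H3 and H4 form the core particle and H1 binds the DNA between particles. Replication-dependent histone genes lie in clusters, are transcribed mainly in S phase and supply the chromatin of newly made DNA, as in dividing thymocytes and leukemic blasts. Their mRNAs typically end in a conserved stem-loop bound by Slbp in place of a poly(A) tail, so a library made by poly(A) selection recovers them poorly, and some members, among them Hist1h1c, Hist1h2bc and Hist2h2be, are known to give polyadenylated transcripts as well. Values below are levels in scaled RPKM, that is reads per kilobase of transcript and library size rescaled so that the 75th percentile gene is at 10 in each library, unless a log2 value is named. A log2 difference was taken on log2(scaled RPKM + 1), which understates the change of low genes, and a gene was called at an adjusted p under 0.05 over all genes tested with limma. The share of all genes at which groups separate fully was not counted, so a lack of overlap below only describes the gene named.

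The stem-loop was found in the annotated transcript (GENCODE M21) of 45 of the 68 genes. Some transcripts without a match are annotated as short, such as Hist1h4k at 312 bases and Hist1h2bl at 381, and may stop before it. A gene without a match is therefore not shown to lack the element. The sequences of the members on which the comparisons turn are shown with the 16 bases of the stem and loop in capitals, because that element sets these mRNAs apart from other mRNAs.
Hist1h1d: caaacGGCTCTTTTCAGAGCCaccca
Hist1h2ag: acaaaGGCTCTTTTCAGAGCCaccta
Hist1h2ao: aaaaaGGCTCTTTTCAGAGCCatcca
Hist1h2bk: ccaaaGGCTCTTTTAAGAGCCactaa
Hist1h3c: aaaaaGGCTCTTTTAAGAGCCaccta
Hist1h4i: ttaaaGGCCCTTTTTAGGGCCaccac
Hist1h4b: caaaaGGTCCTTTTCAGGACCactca
Hist2h4: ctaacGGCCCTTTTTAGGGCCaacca
Hist3h2a: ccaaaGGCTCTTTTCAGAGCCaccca
All 33 stem-loops found in H1, H2A, H2B and H3 transcripts began with GGCTC. Among the 12 found in H4 transcripts, 10 began with GGCCC and 2, those of Hist1h4b and Hist1h4j, with GGTCC. The annotated transcript ran from 3 to 4884 bases past the stem-loop, and it ran more than 100 bases past it for 23 members. Hist3h2a was annotated for 1643 bases beyond its stem-loop and Hist1h2ag for 23. No stem-loop of this form was found in the annotated 2620-base transcript of Hist2h2be.

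Promoter windows from RefSeq (GRCm38.p6), 250 bases before to 50 after each start, matched 62 of the 68 members. They were searched on both strands for 4 motifs. The TATA box was taken as TATAAA. The CCAAT box was searched as these letters. For the octamer, which Oct-1 binds in H2B promoters, the letters were ATTTGCAT. For the Hinfp element, known from H4 promoters, the core GGTCCG was used. A window can hold several motifs. CCAAT lay in the windows of 100% of the 6 H1, 18 H2A, 16 H2B and 10 H3 genes, in 25% of the 12 H4 genes, and in 41.1% of all 27025 windows. GGTCCG lay in 91.7% of the H4 windows and 9.44% of all windows. The octamer was found in 38.9% of H2A and 43.8% of H2B windows, in none of the H1, H3 and H4 windows, and in 1.97% of all windows. Windows of H2A and H2B genes that lie head to head can overlap, as those of Hist1h2ah and Hist1h2bk do. The same site can then count for both genes. TATAAA was present in 56.5% of the members and 15.7% of all windows. The windows of an H2B, an H3 and an H4 gene with large rises in WT T-ALL are printed with these letters in capitals, on the strand of the gene.
Hist1h2bk (chr13:22035571-22035870, plus strand): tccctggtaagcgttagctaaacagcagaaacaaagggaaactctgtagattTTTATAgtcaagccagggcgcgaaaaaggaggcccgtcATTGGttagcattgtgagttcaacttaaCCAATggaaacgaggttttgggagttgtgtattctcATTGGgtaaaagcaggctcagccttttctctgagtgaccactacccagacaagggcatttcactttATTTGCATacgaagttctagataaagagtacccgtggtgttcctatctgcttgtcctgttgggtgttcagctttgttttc
Hist1h3c (chr13:23745472-23745771, minus strand): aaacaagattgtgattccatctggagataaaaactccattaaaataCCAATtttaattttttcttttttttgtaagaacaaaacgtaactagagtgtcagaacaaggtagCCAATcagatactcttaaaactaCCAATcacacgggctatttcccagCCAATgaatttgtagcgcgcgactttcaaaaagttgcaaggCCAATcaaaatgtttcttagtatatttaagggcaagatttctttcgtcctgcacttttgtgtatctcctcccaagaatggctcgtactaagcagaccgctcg
Hist1h4i (chr13:22041313-22041612, minus strand): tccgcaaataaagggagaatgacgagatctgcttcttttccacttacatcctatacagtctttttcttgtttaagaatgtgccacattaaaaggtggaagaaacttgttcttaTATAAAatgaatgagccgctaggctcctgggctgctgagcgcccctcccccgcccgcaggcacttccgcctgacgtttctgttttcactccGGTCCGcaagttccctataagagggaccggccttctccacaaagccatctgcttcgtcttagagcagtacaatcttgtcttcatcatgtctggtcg
The Hist1h2bk window holds the octamer and 3 CCAAT or reverse ATTGG matches, the Hist1h3c window 5 CCAAT matches, and the Hist1h4i window GGTCCG but no CCAAT. A match describes the letters in the window and not a bound site.

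In the libraries as a whole, 10154 to 11011 genes were at 1 or more. Targeted Notch3 was at 2.62 to 4.29 in thymus, 3.17 to 5.78 in WT libraries and 2.59 to 3.74 in Notch3 KO T-ALL on the log2 scale, so the groups overlapped. The knockout allele carries an insertion in the first coding exon, and RNA beyond it can still be counted. T cell markers averaged 7.14 to 8.43 in T-ALL against 8.11 to 8.44 in thymus (mean log2 value of 6 genes). Erythroid markers averaged 0.867 to 2.62 in thymus, 3.75 to 8.03 in WT libraries and 7.18 to 9.34 in Notch3 KO T-ALL (10 genes), with no overlap between thymus and T-ALL. Macrophage markers averaged 1.10 to 2.91, 1.89 to 5.37 and 4.79 to 5.35 in the 3 groups (7 genes), neutrophil markers 2.33 to 4.38, 5.15 to 11.9 and 3.59 to 8.54 (7 genes), megakaryocyte markers 0.207 to 0.325, 0.926 to 4.87 and 3.68 to 4.91 (4 genes), and B cell markers 1.37 to 2.02, 0.133 to 0.611 and 0.158 to 0.320 (5 genes). Thymic epithelium markers averaged 0.498 to 0.856, 0.0061 to 0.603 and 0.058 to 0.466 in the 3 groups (5 genes), so both T-ALL groups overlapped each other. Of these, Foxn1, Psmb11 and Krt5 were listed at 0 in all 3 Notch3 KO libraries, as was the B cell gene Pax5. In such bulk samples, fewer cells of a type and less RNA per cell cannot be told apart.

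The H2A gene Hist1h2ao and its near copy Hist1h2ap together accounted for most of the histone signal in every library. Hist1h2ao was listed at 1205 to 3168 in thymus (median 1765), at 1387 to 5265 in WT T-ALL (median 1797), and at 797, 1263 and 791 in Notch3 KO T-ALL 1, 2 and 3. Hist1h2ap was listed at 0 in every library except WT T-ALL 5 (536), Notch3 KO T-ALL 1 (255) and Notch3 KO T-ALL 3 (367). Of the 100-base windows of the Hist1h2ao transcript, 92.7% also occur in Hist1h2ap, so the division of reads between the pair is uncertain and values of either gene alone rest on it. Their sum was 2068 ± 819 in thymus (SD, n = 6), 2118 ± 977 in WT T-ALL (SD, n = 14) and 1158 ± 105 in Notch3 KO T-ALL (SD, n = 3). The 3 Notch3 KO libraries, at 1052, 1263 and 1158, lay below every WT T-ALL library, of which the lowest was at 1387, and overlapped thymus, of which the lowest was at 1205. The pair made up 88.2 to 92.4% of the summed histone signal in thymus, 78.0 to 92.3% in WT libraries and 69.1 to 79.9% in Notch3 KO T-ALL.

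Outside this pair, the histone types did not move alike. The other 66 members summed to 162 to 265 in thymus (median 205), 170 to 832 in WT T-ALL (median 266) and 264, 468 and 518 in Notch3 KO T-ALL. The H3 sum was 16.8 to 29.1 in thymus and 29.7 to 226 in WT T-ALL, without overlap, and 27.1, 45.4 and 46.0 in Notch3 KO T-ALL. The H4 sum was 25.4 to 48.1 in thymus, 30.6 to 123 in WT libraries, and 81.2, 120 and 193 in Notch3 KO T-ALL.
The H1 sum was 11.6 to 24.5 in thymus and 8.30 to 38.6 in WT T-ALL, which overlapped, and 27.7, 53.1 and 47.5 in Notch3 KO T-ALL. H2B genes summed to 52.6 to 83.4 in thymus, 45.6 to 164 in WT libraries and 87.8, 124 and 175 in Notch3 KO T-ALL. H2A genes other than the pair summed to 48.2 to 83.8, 40.3 to 280 and 40.3 to 125 in the 3 groups and overlapped throughout. These sums are descriptions, without a test.

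**Figure D1:**
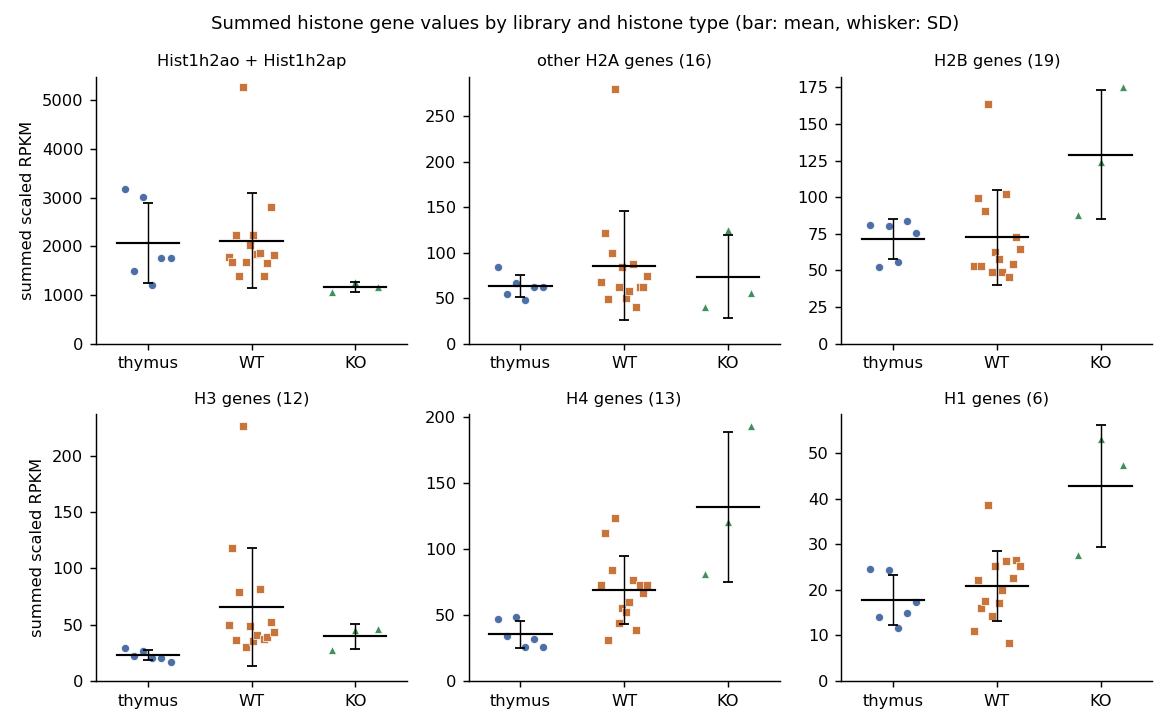
Summed scaled RPKM of histone genes by type, with 1 point per library, the group mean as a bar and the SD as a whisker. The mean H4 and H1 sums are highest in Notch3 KO T-ALL, the H3 sum of every WT T-ALL library lies above thymus, and WT T-ALL 14 is the highest WT point in every panel.

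The libraries of a group differed widely. WT T-ALL 14 held the highest value of the 14 WT libraries for 45 of the 61 members tested, with a median member level of 7.70 against 1.44 to 4.32 in the other 13. Rmrp and Rpph1, RNAs without a poly(A) tail, were also highest in WT T-ALL 14 among the WT libraries, at 4.08 and 6.28 on the log2 scale. In thymus, libraries 1 and 3 held the highest value for 23 and 21 members. These were the thymus libraries with the highest Rmrp, at 3.24 and 2.86, and with the highest Rpph1, at 4.19 and 4.24. Other libraries did not keep to this order. WT T-ALL 111 had the lowest Rmrp of the WT libraries, at 0.646 on the log2 scale, and a median member level of 3.88. WT T-ALL 48 had Rmrp at 3.26 and a median member level of 2.78. Thymus 6, with Rpph1 at 4.08, held the lowest thymus value for 21 members. Whether recovery of RNA without poly(A) tails had a part in the histone values was not tested.

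WT T-ALL was compared with thymus, the normal tissue of the series. Among 61 members tested, 18 rose and 4 fell. Of all 11919 genes tested, 29.3% were called higher and 22.3% lower, so the share of rising members (29.5%) was close to that of all genes, while the share of falling members (6.56%) was smaller. Among the 48 members at 1 or more in at least 3 thymus libraries, 17 rose and 4 fell. The median log2 difference was 0.38 over the members and 0.08 over all genes. By type, 7 of 12 H3, 5 of 15 H2A, 3 of 16 H2B and 3 of 13 H4 genes rose. None of the 5 H1 genes was called with limma, and 0 of them had an unadjusted p under 0.05. All 4 falling genes lay outside the Hist1 cluster: among 49 Hist1 members 17 rose and 0 fell, and among the 12 members of the other clusters 1 rose and 4 fell.

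The largest rises were in the core histone genes of the Hist1 cluster. Hist1h3c, an H3 gene, was at 5.03 to 8.23 in thymus (median 5.77) and 11.2 to 107 in WT T-ALL (median 17.99), so that all 14 WT libraries lay above all thymus libraries. It differed by 1.75 ± 0.34 on the log2 scale (SE, adjusted p = 0.000175). For Hist1h2bk, an H2B gene, the range was 1.59 to 5.96 in thymus (median 3.62) and 3.97 to 40.5 in WT T-ALL (median 10.5), with 12 of 14 WT libraries above every thymus library and a log2 difference of 1.499 ± 0.315 (SE, adjusted p = 0.00043).
Hist1h2ag, an H2A gene, was at 5.16 to 15.4 in thymus (median 9.48) and 14.5 to 114 in WT T-ALL (median 21.7). Only 1 WT library fell within the thymus range, and the log2 difference was 1.39 ± 0.30 (SE, adjusted p = 0.00064).
Further Hist1 genes of the H3 and H4 types also rose. Hist1h3h was at 1.81 to 3.27 in thymus and 4.03 to 29.9 in WT T-ALL, without overlap, and rose by 1.15 ± 0.27 (SE, adjusted p = 0.00133). Only 8.0% of the 100-base windows of Hist1h3h and 29.2% of those of Hist1h2bk are their own, so reads of other H3 and H2B genes could be counted with them. Hist1h4i, the most abundant H4 gene, was at 8.58 to 20.7 in thymus (median 14.9) and 14.5 to 59.6 in WT T-ALL (median 32.4) and rose by 1.10 ± 0.23 (SE, adjusted p = 0.00036), with 12 of 14 WT libraries above all thymus libraries. Hist1h4b rose by 1.17 ± 0.32 (SE, adjusted p = 0.00468), from a mean of 2.66 to 8.31. Hist1h4d, named after its values were seen, with a mean of 3.51 in thymus and 5.92 in WT libraries, did not pass the test (0.49 ± 0.28, SE, adjusted p = 0.155).

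The falls were in H2A and H2B genes of the Hist2 and Hist3 clusters. Hist3h2ba was at 17.7 to 38.0 in thymus (median 25.7) and 2.30 to 12.9 in WT T-ALL (median 7.50), with a log2 difference of -1.80 ± 0.25 (SE, adjusted p = 3.82e-06). Hist2h2be was at 9.61 to 16.9 in thymus (median 12.8) and 1.43 to 5.63 in WT T-ALL (median 3.13), a log2 difference of -1.70 ± 0.18 (SE, adjusted p = 9.49e-08). Hist3h2a was at 16.1 to 28.2 in thymus (median 18.6) and 2.53 to 12.1 in WT T-ALL (median 6.45), a log2 difference of -1.62 ± 0.23 (SE, adjusted p = 5.19e-06). For these 3 genes every WT library lay below every thymus library. Hist2h2aa1, named after its values were seen, fell by 0.61 ± 0.18 (SE, adjusted p = 0.007), with 10 of 14 WT libraries below the thymus range. Part of the Hist2h2aa1 transcript is shared with other annotated genes (88.3% of its windows with Gm20634), and 29.8% of the Hist3h2a windows occur in Trim17, so reads of those genes could be counted with them.
Hist1h1c, the most abundant linker histone gene, was at 4.17 to 10.5 in thymus (median 9.78) and 3.03 to 13.3 in WT T-ALL (median 8.21), and Hist1h2bc was at 7.28 to 15.1 (median 10.2) and 6.71 to 26.7 (median 13.2). Neither passed the test (log2 differences 0.01 ± 0.25 and 0.21 ± 0.24, SE).

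**Figure D2:**
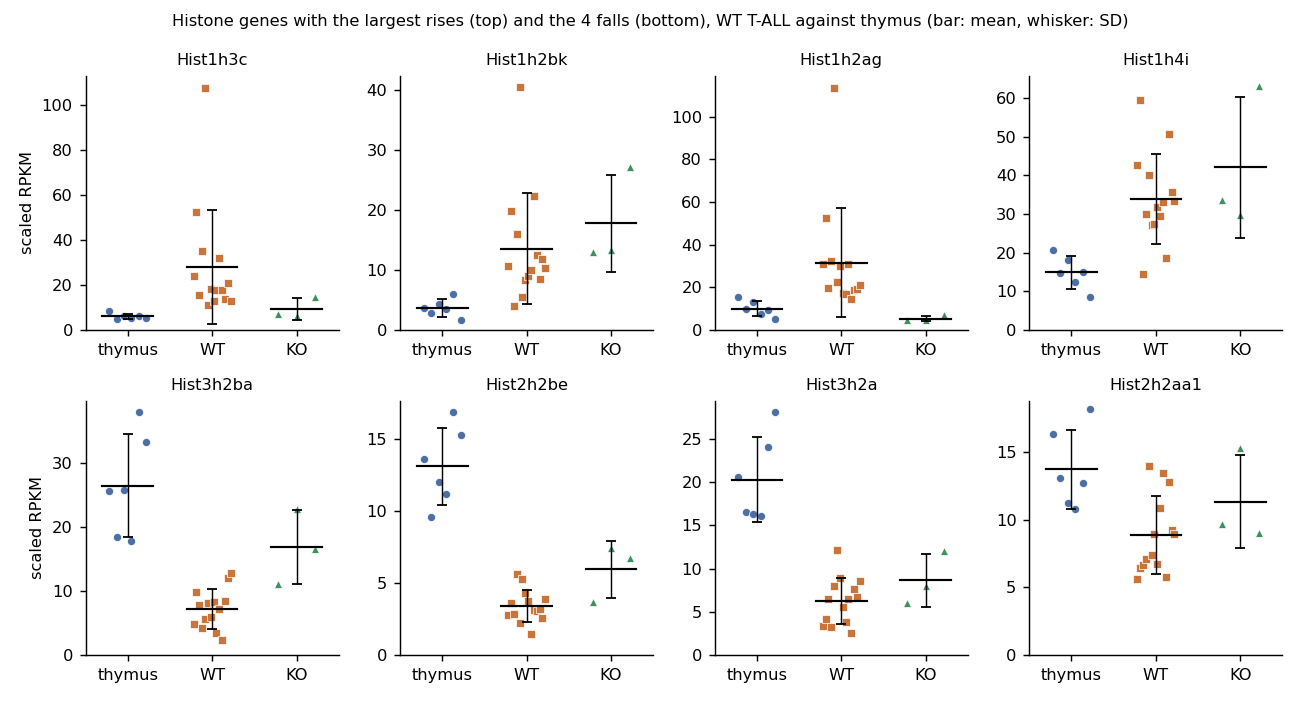
Scaled RPKM of 8 histone genes in every library, with the group mean as a bar and the SD as a whisker. The top row shows Hist1 genes higher in WT T-ALL than thymus, and the bottom row the 4 genes lower in WT T-ALL, of which Hist3h2ba, Hist2h2be and Hist3h2a do not overlap between the groups.

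Leaving out thymus 6 lowered the number of rising members from 18 to 11, with 4 falls, while rises over all genes went from 3493 to 3059. Quantile normalization gave 11 rises and 5 falls (24.7% and 25.5% of all genes), and correction for transcript length and GC content gave 8 and 5 (30% and 22.4%). With the erythroid score, the mean log2 value of the erythroid markers, as a covariate, 0 members rose and 4 fell (5.31% and 5.45% of all genes), 9 members having an unadjusted p under 0.05, and the median log2 difference of the members turned from 0.38 to -0.12. That score did not overlap between thymus and T-ALL, so it and the group are not separable in this fit.

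Notch3 KO T-ALL differed from thymus at more members. With the same thymus libraries as reference, 34 of 61 members rose and 3 fell, where 21.2% of all genes rose and 16.3% fell. The median log2 difference was 1.03 over the members and 0.08 over all genes. By type, 12 of 13 H4, 4 of 5 H1 and 12 of 16 H2B genes rose, against 3 of 12 H3 and 3 of 15 H2A genes. Of the 61 members, 13 were at 1 or more in fewer than 3 thymus libraries and passed the filter on low values mostly through T-ALL, 3 of them (Hist1h2ap, Hist1h4j and Hist3h2bb-ps) through the Notch3 KO libraries. Among the other 48, 25 rose and 3 fell, and by type 9 of 9 H4, 4 of 5 H1, 7 of 11 H2B, 3 of 9 H3 and 2 of 14 H2A genes rose. These shares by type were not tested against each other.

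H4 genes had a median log2 difference of 1.64. Hist1h4i was at 33.6, 29.6 and 63.1 in Notch3 KO T-ALL 1, 2 and 3, all above thymus, and rose by 1.41 ± 0.33 (SE, adjusted p = 0.00193). Hist1h4b was at 6.72, 6.22 and 16.9 and rose by 1.49 ± 0.47 (SE, adjusted p = 0.0158), a call lost without Notch3 KO T-ALL 3 (adjusted p = 0.143). The H4 gene not called was Hist1h4m, which shares 88.1% of its windows with Hist1h4n.
Linker histone genes followed. Hist1h1d was at 1.70 to 4.86 in thymus (median 2.65) and 6.51, 13.8 and 12.4 in Notch3 KO T-ALL, a rise of 1.52 ± 0.31 (SE, adjusted p = 0.000677). Hist1h1e was at 0.871 to 4.77 in thymus (median 3.09) and 6.37, 8.49 and 7.55, a rise of 1.17 ± 0.39 (SE, adjusted p = 0.0203) that was lost without Notch3 KO T-ALL 2 (adjusted p = 0.0647) or 3 (adjusted p = 0.0671). All 3 Notch3 KO libraries exceeded all thymus libraries for both genes. Hist1h1c, at 7.53, 15.0 and 13.1, was not called (0.52 ± 0.36, SE).

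Among H2B genes, Hist2h2bb showed the largest rise. It was at 1.06 to 3.72 in thymus (median 1.48) and 7.42, 18.5 and 14.8 in Notch3 KO T-ALL, a rise of 2.26 ± 0.40 (SE, adjusted p = 0.000138). Hist1h2bb was at 0.491 to 3.40 in thymus (median 1.02) and 5.84, 7.52 and 15.9, a rise of 2.03 ± 0.44 (SE, adjusted p = 0.000934). For Hist1h2bk the values were 13.01, 13.3 and 27.1, a rise of 2.00 ± 0.46 over thymus (SE, adjusted p = 0.00158).
In none of these 3 genes did a Notch3 KO library overlap thymus, and the share of all genes that separate in this way was not counted. Hist1h2ap was called, but it is listed at 0 in all thymus libraries and no fold is given. Hist1h2bc, at 16.03, 13.9 and 19.9, did not pass the test (0.63 ± 0.35, SE).
The falls were Hist1h2ao, by 1.07 ± 0.35 (SE, adjusted p = 0.0185), Hist2h2be, by 1.05 ± 0.26 (SE, adjusted p = 0.00317), and Hist3h2a, by 1.16 ± 0.33 (SE, adjusted p = 0.00878), of which the first rests on the uncertain split with Hist1h2ap and was lost without Notch3 KO T-ALL 1 (adjusted p = 0.0826) or 3 (adjusted p = 0.0905). Hist2h2be was at 3.65, 7.40 and 6.75, and Hist3h2a at 5.96, 8.04 and 12, all below the thymus ranges given above. The call of Hist3h2a was lost without Notch3 KO T-ALL 1 (adjusted p = 0.0688). Hist3h2ba, at 11.1, 22.8 and 16.6, overlapped thymus and was not called (-0.63 ± 0.36, SE).

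**Figure D3:**
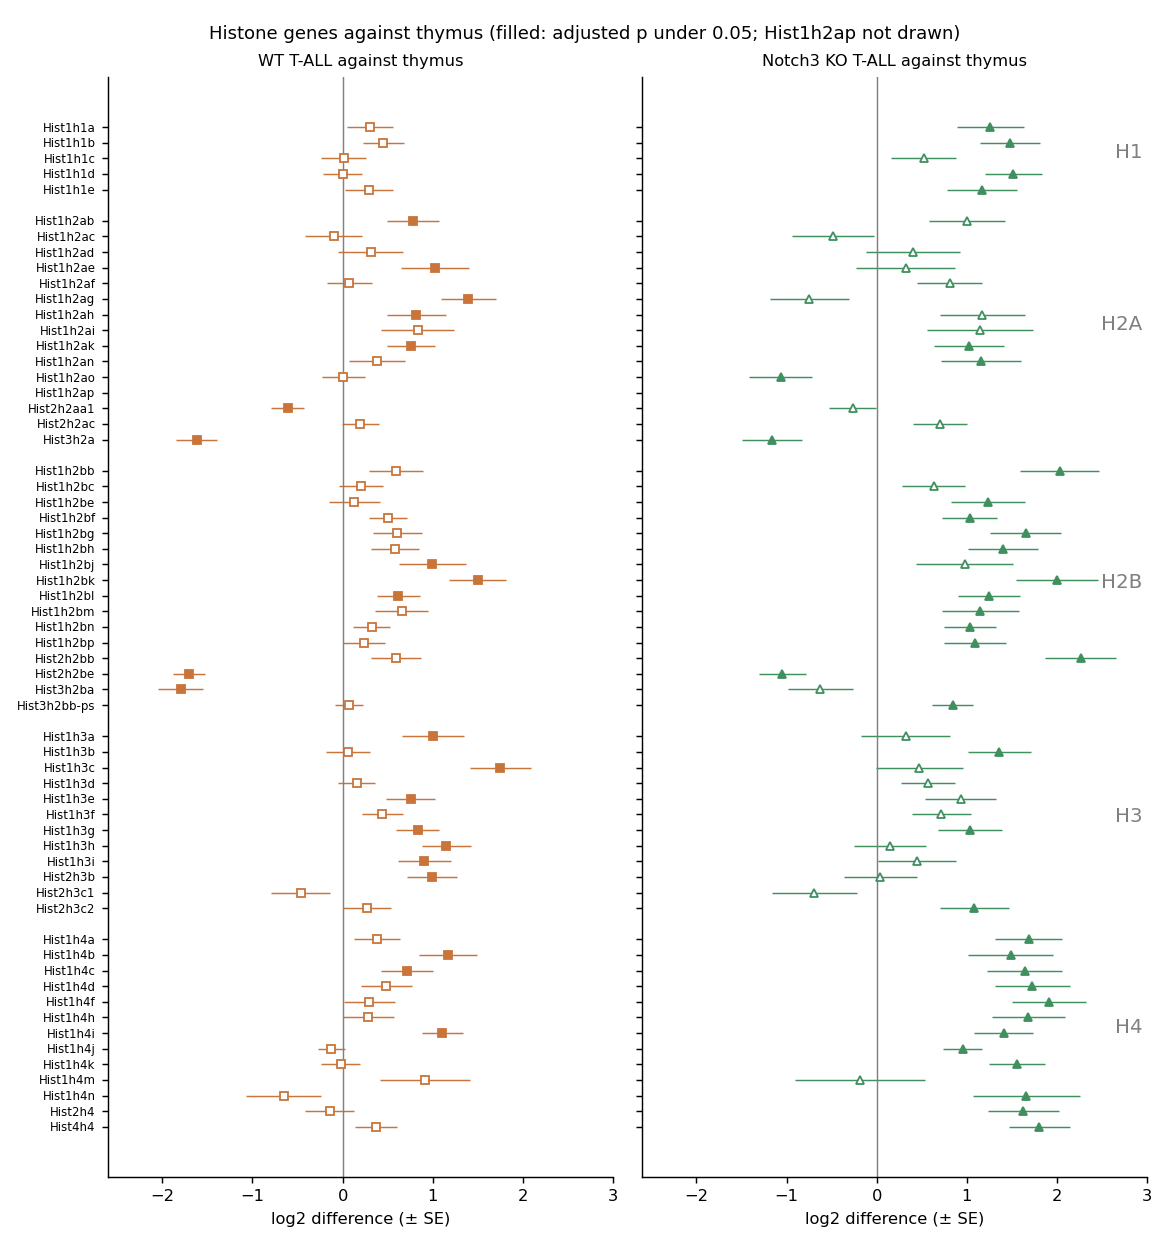
Log2 difference from thymus with SE for the members tested, grouped by histone type, for WT T-ALL at the left and Notch3 KO T-ALL at the right. Filled symbols mark an adjusted p under 0.05. In Notch3 KO T-ALL 12 of 13 H4 genes rose, while in WT T-ALL the type with the most rises was H3, with 7 of 12.

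RNAs without poly(A) tails and markers of several blood cell types moved with the Notch3 KO group. Of the 11 tested RNAs without poly(A) tails, 8 rose against thymus (72.7%, against 21.2% of all genes) with a median log2 difference of 2.25, whereas limma called 0 of the 11 in WT T-ALL against thymus, with 0 also at an unadjusted p under 0.05. These 11 were the ones, of 123 listed, that passed the filter on low values. Which of them passed through the Notch3 KO libraries was not examined, so a rise may be built into the selection. Rmrp was at 5.33, 6.21 and 6.86 on the log2 scale in Notch3 KO T-ALL 1, 2 and 3, above the highest thymus (3.24) and WT (4.08) libraries. All 10 erythroid markers rose, with a median log2 difference of 6.89, as did 7 of 7 macrophage (2.87), 4 of 4 megakaryocyte (4.02) and 3 of 7 neutrophil markers (3.19), while 4 of 4 B cell markers tested fell (-1.53). In WT T-ALL against thymus, 9 of 10 erythroid (median 4.60), 6 of 7 macrophage (1.44), 4 of 4 megakaryocyte (2.08) and 7 of 7 neutrophil markers (3.82) rose and 4 of 4 B cell markers fell (-1.56). Of 6 T cell markers, 2 fell in Notch3 KO T-ALL (median -0.53) and 2 in WT T-ALL (-0.21), and 0 rose in either. With the erythroid score as a covariate, 0 members were called higher and 0 lower (1.54% and 1.19% of all genes), 7 members having an unadjusted p under 0.05, and the median log2 difference of the members was 0.32. Without Notch3 KO T-ALL 3 there were 21 rises and 2 falls among members and 1587 and 1272 among all genes, and without Notch3 KO T-ALL 1 there were 36 and 1 among members and 1836 and 1444 among all genes, where the 3 libraries together gave 2527 and 1948. The part of any of these gene groups in the histone values was not tested.

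**Figure D4:**
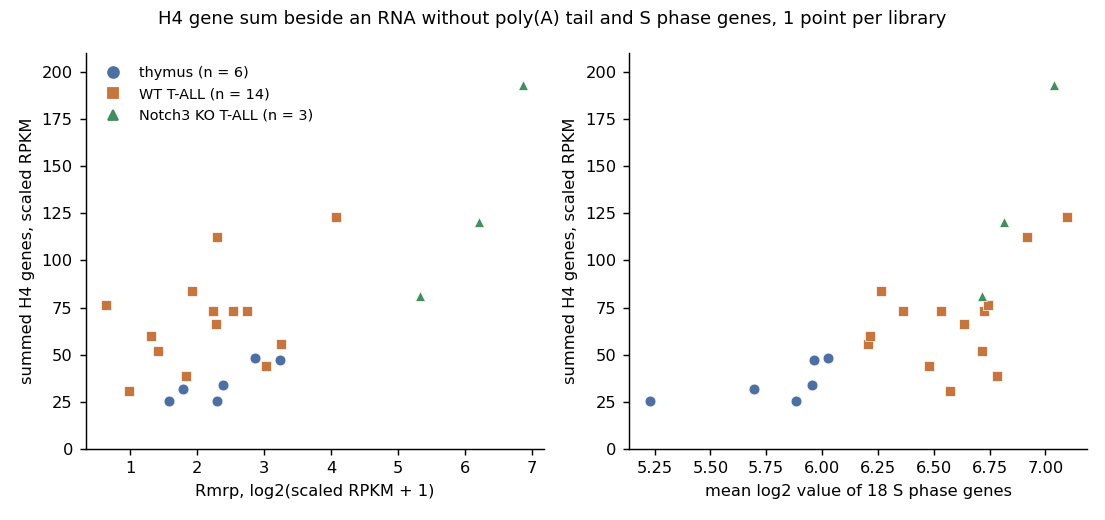
Summed scaled RPKM of the 13 H4 genes against the log2 value of Rmrp (left) and the mean log2 value of 18 S phase genes (right), 1 point per library. The 3 Notch3 KO libraries lie to the right of all others in Rmrp, and every T-ALL library lies to the right of every thymus library in S phase genes, with a mean log2 value of 6.21 or more against at most 6.03.

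The direct comparison of the T-ALL groups sets leukemias from donor thymus without Notch3 against those from wild-type thymus. Donor genotype cannot be told apart here from other differences between the groups, such as those in RNAs without poly(A) tails and in erythroid markers. Of 60 members tested, 5 were higher and 1 was lower in Notch3 KO T-ALL, where 0.591% of all 11677 genes tested were higher and 0.0257% lower. The median log2 difference was 0.58 over the members and close to 0 over all genes, and 33 members had an unadjusted p under 0.05. Among the 48 members at 1 or more in at least 3 thymus libraries, 4 were higher and 1 was lower. By type the median was 1.30 for H4, 0.96 for H1, 0.74 for H2B, 0.31 for H2A and 0.17 for H3 genes among the 60. Among the 48 it was 1.40, 0.96, 0.82, 0.29 and -0.46 in the same order, so the sign for H3 genes depended on which members were counted. The higher genes were Hist1h1d, Hist1h4j, Hist1h4k, Hist2h4 and Hist2h2bb, and the lower gene was Hist1h2ag.

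Hist1h1d, the H1 gene, was at 1.62 to 5.39 in WT T-ALL (median 3.15), and all 3 Notch3 KO libraries, given above, were higher. The log2 difference was 1.52 ± 0.28 (SE, adjusted p = 0.0131). Hist1h4k was at 0.844 to 3.54 in WT T-ALL (median 1.68) and 3.30, 13.7 and 8.49 in Notch3 KO T-ALL, with 2 of 3 above every WT library and a difference of 1.58 ± 0.30 (SE, adjusted p = 0.0131). Of its windows, 64.3% occur in Hist1h4a, and 45.4% of those of Hist2h2bb, the H2B gene called, occur in Gm42743.
Hist2h4, the H4 gene of the Hist2 cluster, was at 0.252 to 3.85 in WT T-ALL (median 1.22) and 3.48, 7.16 and 12.96 in Notch3 KO T-ALL, a difference of 1.77 ± 0.36 (SE, adjusted p = 0.0266). Hist2h2bb was at 1.36 to 7.92 (median 3.15) against 7.42, 18.5 and 14.8, a difference of 1.67 ± 0.36 (SE, adjusted p = 0.0373), a call lost in 15 of 27 alternatives (adjusted p from 0.0121 to 0.558). For these 2 genes Notch3 KO T-ALL 1 lay within the WT range and the other 2 libraries above it.
Hist1h4j was low throughout, at 0.302 to 1.44 in WT T-ALL (median 0.472) and 1.58, 2.07 and 3.74 in Notch3 KO T-ALL, a difference of 1.08 ± 0.23 (SE, adjusted p = 0.0351), a call lost in 12 of 26 alternatives. It passed the low-value filter through the Notch3 KO libraries, so a difference was built into its selection.
Hist1h2ag was the exception in direction. It was at 14.5 to 114 in WT libraries and 4.66, 4.44 and 6.87 in Notch3 KO T-ALL, all 3 below every WT library, with a difference of -2.14 ± 0.42 (SE, adjusted p = 0.0204). Only 23.8% of its 100-base windows are its own and 68.1% occur in Hist1h2ap, so its reads may be divided among several H2A genes.

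Other abundant members did not pass the test between the T-ALL groups. Hist1h2ao, the most abundant, differed by -1.07 ± 0.30 (SE, adjusted p = 0.121), a value that rests on the uncertain split with Hist1h2ap. Hist1h3c was at 6.98, 6.20 and 14.7 in Notch3 KO T-ALL against 11.2 to 107 in WT T-ALL (log2 difference -1.28 ± 0.49, SE, adjusted p = 0.362). Hist1h3h was at 1.71, 3.59 and 3.52, below every WT library (-1.0 ± 0.39, SE, adjusted p = 0.375). Hist1h4i differed by 0.30 ± 0.31 (SE, adjusted p = 0.961).
The calls rested on few libraries. With all libraries, 69 of all genes were higher and 3 lower. Without Notch3 KO T-ALL 2, or without Notch3 KO T-ALL 3, limma called 0 members, with 23 and 25 at an unadjusted p under 0.05, and called 3 and 10 of all genes higher and 0 and 2 lower. Without Notch3 KO T-ALL 1 it called 10 members higher and 1 lower (197 and 8 of all genes), and without WT T-ALL 14 it called 8 higher and 2 lower (56 and 5 of all genes). With the 7 WT libraries numbered up to 48 alone it called 0 members higher and 1 lower (21 and 1 of all genes), and with the 7 numbered from 108 it called 3 and 2 (37 and 4 of all genes). With the erythroid score as a covariate 0 members were called (0.146% of all genes higher and 0.00856% lower), 21 having an unadjusted p under 0.05. The median log2 difference of the members was 0.45 with this covariate, and 0.55 and 0.53 without Notch3 KO T-ALL 2 and 3. RNAs without poly(A) tails were higher in Notch3 KO T-ALL for 7 of 11 tested, led by Rmrp (log2 difference 3.95 ± 0.53, SE, adjusted p = 0.000839), Snord22 and Snord15b, while limma called 0 of 10 erythroid markers, 8 of them at an unadjusted p under 0.05 (median log2 difference 2.33). The limit of the low-value filter given above for these RNAs without poly(A) tails applies here as well.

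**Figure D5:**
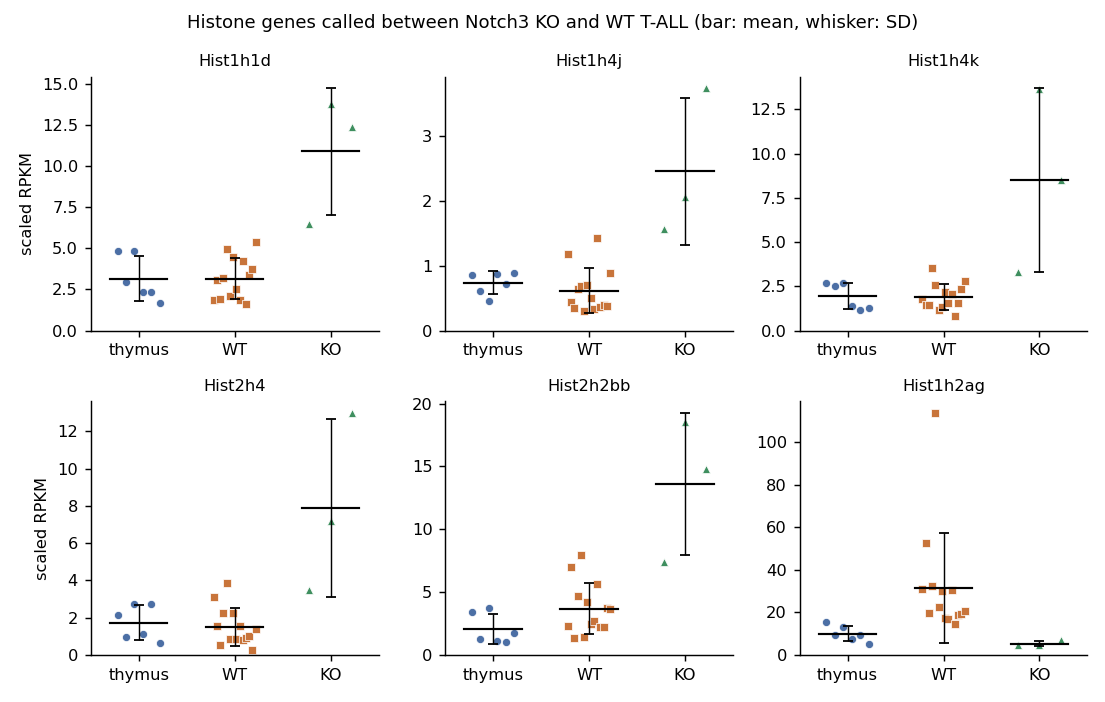
Scaled RPKM of the 6 histone genes called between Notch3 KO and WT T-ALL in every library, with the group mean as a bar and the SD as a whisker. Hist1h1d, Hist1h4j, Hist1h4k, Hist2h4 and Hist2h2bb are higher in Notch3 KO T-ALL and Hist1h2ag is lower.

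Near-identical members limited several single-gene values. Hist1h4n, named after its values were seen, was listed at 0 in all 7 WT T-ALL libraries numbered 108 to 202 and at 1.15 to 5.57 in the 7 numbered 3 to 48. Hist1h4m was listed at 2.38 to 8.02 in the former and at 0 to 3.36 in the latter. Their sum was 1.70 to 4.48 in thymus, 1.15 to 8.02 in WT libraries and 5.57, 8.34 and 15.1 in Notch3 KO T-ALL, so the sum does not show the break that the separate genes show. Whether the authors processed these 2 sets of WT libraries alike is not given in the sources used here, and its part in the calls that changed between the sets was not tested. Hist1h2bq and Hist1h2br, which share 94.6% of the windows of Hist1h2bq, never exceeded 1.27 and were not tested. Over the 3 Hist2h3 genes, which share sequence, the sum was 2.56 to 5.82 in thymus, 3.84 to 18.5 in WT libraries and 5.68 to 7.50 in Notch3 KO T-ALL.
Of 7 members not tested, Hist1h2aa and Hist1h2ba, forms known from testis, were listed at 0 in all libraries, and Hist1h1t, the testis linker histone, reached at most 0.0912. Hist2h2ab reached 0.539 and Hist2h2aa2, all of whose windows occur in Hist2h2aa1, was at or near 0.

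H2A and H2B genes lie head to head in 13 pairs with 173 to 306 bases between their starts, and 10 pairs had both genes tested. In WT T-ALL against thymus both genes of 2 pairs rose, Hist1h2ag with Hist1h2bj and Hist1h2ah with Hist1h2bk, while the H2A gene alone was called in 3 pairs and the H2B gene alone in 2. In Notch3 KO T-ALL against thymus both genes of 2 pairs rose, Hist1h2ak with Hist1h2bn and Hist1h2an with Hist1h2bp, of which both H2B genes passed the low-value filter only through T-ALL libraries, and in 5 pairs the H2B gene alone was called, 2 of these H2B genes (Hist1h2bf and Hist1h2bl) having passed the filter in the same way. Hist2h2be and Hist3h2a, which fell in both T-ALL groups, are paired with Hist2h2ac and Hist3h2bb-ps, which did not fall in either. Hist2h2ac was not called, with log2 differences of 0.19 in WT and 0.70 in Notch3 KO T-ALL. Hist3h2bb-ps was not called in WT T-ALL (0.07) and was called higher in Notch3 KO T-ALL (0.84, adjusted p = 0.00559), having passed the low-value filter through the Notch3 KO libraries. The pair partners were named after their values were seen.

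Genes that act with the histone genes were examined as lists, to be read against the 29.3% of all genes called higher and 22.3% lower in WT T-ALL, and the 21.2% and 16.3% in Notch3 KO T-ALL. Of 18 S phase and proliferation genes, 15 rose in WT T-ALL and 14 in Notch3 KO T-ALL against thymus and 0 fell (median log2 differences 0.85 and 1.08). Cdc6, which licenses replication origins, rose by 1.31 ± 0.23 in WT and 1.79 ± 0.34 in Notch3 KO T-ALL (SE, adjusted p = 7.17e-05 and 0.000268). Among 12 histone chaperones and import factors, 8 rose in each comparison, and 1 fell in WT T-ALL. Chaf1a, a subunit of the factor that deposits H3 and H4 at replication forks, rose by 1.02 ± 0.18 and 1.42 ± 0.27 (SE, adjusted p = 9.12e-05 and 0.000275).
Few of the factors that make and process histone mRNA were called. Of 15 tested, 2 rose in WT T-ALL and 1 in Notch3 KO T-ALL, with median log2 differences of 0.09 and 0.06. Slbp, the stem-loop binding protein, rose by 0.59 ± 0.15 in WT and 0.77 ± 0.22 in Notch3 KO T-ALL (SE, adjusted p = 0.00234 and 0.00761), and Cpsf3, the endonuclease that cuts histone pre-mRNA, rose by 0.57 ± 0.15 in WT T-ALL (SE, adjusted p = 0.00244). Of 10 replication-independent histone genes, whose mRNAs carry poly(A) tails, 2 rose in WT T-ALL, H2afz by 0.73 ± 0.21 and Cenpa by 0.57 ± 0.14 (SE, adjusted p = 0.00531 and 0.00184). In Notch3 KO T-ALL Cenpa rose by 0.59 ± 0.20 and H2afv fell by 0.61 ± 0.21 (SE, adjusted p = 0.0255 and 0.0284). Between the T-ALL groups limma called 0 genes of these 4 lists, and 2, 1, 0 and 1 had an unadjusted p under 0.05 in the order given.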

How the data were processed

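RNA of 6 thymus, 14 WT T-ALL and 3 Notch3 KO T-ALL samples was sequenced from stranded poly(A)-selected libraries as paired reads. The authors mapped reads to the mm10 transcriptome with OSA in ArrayStudio. Versions and the gene model are not given in the sources used here. The authors deposited log2(scaled RPKM + 1) values, with the 75th percentile gene at 10 in each library. The deposited values hold no read counts, so the depth of single libraries could not be taken from them, and how reads shared by similar transcripts were counted is not given in the sources used here. The members and lists were chosen with earlier results of these data known. Groups were compared with limma 3.58.1 in R 4.3.3 (trend and robust), over genes that reached a scaled RPKM of 1 in 3 or more samples, with all 3 groups in 1 fit for thymus comparisons and the T-ALL groups alone for the other, and Benjamini-Hochberg adjustment. The script was tested on simulated data. Members named with values were, in each type, the 2 with the highest mean, the 3 largest rises and falls called in each comparison, every member called between T-ALL groups, 3 genes with polyadenylated forms and 3 testis forms. For other lists at most 3 called genes were named. Transcript sequences came from GENCODE M21 and promoters from RefSeq. Alternatives were another offset, filter and scaling, a length and GC correction, an erythroid covariate, other sample sets, a replicate block and leaving out each library.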

Additional observations from a re-analysis of the deposited data

Results flagged for a closer look

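The change against thymus differed between Notch3 KO and WT T-ALL for 6 histone genes, by the direct comparison of the T-ALL groups given above. Thymus cancels out of this difference and was not in that fit. The values are therefore those already given and not a further test. This difference of log2 differences was 1.52 for Hist1h1d (adjusted p = 0.0131), 1.58 for Hist1h4k (adjusted p = 0.0131), 1.77 for Hist2h4 (adjusted p = 0.0266), 1.08 for Hist1h4j (adjusted p = 0.0351), 1.67 for Hist2h2bb (adjusted p = 0.0373) and -2.14 for Hist1h2ag (adjusted p = 0.0204). Hist1h4j passed the low-value filter through the Notch3 KO libraries, so its difference was built into its selection. The call of Hist2h2bb was lost in 15 of 27 alternatives and that of Hist1h4j in 12 of 26. No thymus library stood apart from the other 5 in the 26 named member values and histone sums examined for this.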

How the results depend on the processing

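The number of members called between WT T-ALL and thymus, 22, became 13 after the length and GC correction and 4 with the erythroid covariate. The number called between Notch3 KO T-ALL and thymus, 37, became 20 with genes at 5 or more and 0 with the erythroid covariate. At 5 or more, 2115 of all genes were higher and 1671 lower. The number called between the T-ALL groups, 6, became 3 with an offset of 0.1, 0 with genes at 5 or more (18 at an unadjusted p under 0.05), 0 with the erythroid covariate, 13 in a fit of all 3 groups and, in a subset chosen after seeing the data, 1 with the WT libraries numbered up to 48. Of all genes, 36 were higher and 3 lower with an offset of 0.1, 6 and 0 at 5 or more, and 231 and 23 in the fit of all 3 groups, against 69 and 3. The causes were not tested, except that a filter at 5 leaves 35 members. Leaving out 1 library gave 15 to 28, 23 to 38 and 0 to 11 calls in the 3 comparisons. The mean histone sum became 3324 in thymus under quantile normalization, and leaving out 1 library gave 2047 to 2460.0 in thymus, 2149 to 2498 in WT libraries and 1496 to 1703 in Notch3 KO T-ALL. Same-numbered samples are different mice and their deviations correlated at -0.24 to 0.15, no sample matching best its own number. With the number as a replicate block, 5 members were called in WT T-ALL against thymus (2 higher, 3 lower) and 25 in Notch3 KO T-ALL against thymus. The block fits used only libraries whose number occurs in both groups. These were numbers 3, 4 and 5 for WT T-ALL and thymus, and 1, 2 and 3 for Notch3 KO T-ALL and thymus. The block and the loss of libraries therefore cannot be told apart in these counts. Calls over all genes under the block were 1022 higher and 784 lower, from 3493 and 2657, in the former and 2022 and 1606, from 2527 and 1948, in the latter. No replicate block could be fitted between the T-ALL groups, which share 1 number. Over the calls of single named members, 601 of 684 alternative values kept their direction and call, 83 kept the direction alone and 0 reversed, with the most calls lost between the T-ALL groups by Hist2h2bb (15 of 27) and Hist1h4j (12 of 26). Falls of Hist3h2ba, Hist2h2be and Hist3h2a in WT T-ALL passed in all 31 alternatives run. Without read counts, no limit of detection can be given for members listed at 0, and 3 Notch3 KO libraries limit what their comparisons can call.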

Other observations

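More members reached a scaled RPKM of 1 in the Notch3 KO libraries, with 54, 58 and 61 of 68 against 35 to 53 in thymus and 38 to 58 in WT T-ALL. The share of all histone members in the scaled RPKM summed over all genes was 0.337 to 0.620% in thymus, 0.208 to 0.561% in WT libraries and 0.166 to 0.261% in Notch3 KO T-ALL.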
